A study of Bos taurus with 8 samples.

Results

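Bovine plasma and blood cells were compared for 8 epithelial miRNAs, which comprise the 5 mature miRNAs of the miR-200 family (bta-miR-200a, bta-miR-200b, bta-miR-200c, bta-miR-141 and bta-miR-429), bta-miR-205, and bta-miR-182 with bta-miR-183, written below without the prefix for cattle. They were picked by name, and 8 of 8 were found among the 704 miRNA names of the read count table. The study asked which circulating miRNAs come from body tissues and not from blood cells, and small RNA was therefore sequenced in plasma and in the blood cell pellet of the same 4 cows, numbered 44 to 47. Plasma libraries (n = 4) came from 0.7 mL of plasma that was centrifuged and passed through a filter, and blood cell libraries (n = 4) from another volume of the same blood, whose pellet of red cells and buffy coat was taken up in 0.25 mL. The animals were healthy, non-pregnant, cycling Holstein-Friesian cross females aged 20 to 25 months. Every cow gave 1 library of either kind, and the comparison is paired by cow. A pellet of this kind mixes many cell types, so that fewer cells of a type and less RNA per cell cannot be told apart.

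The miR-200 family is known for holding cells in an epithelial state, by repressing the transcription factors ZEB1 and ZEB2, which drive the transition to a mesenchymal state. The family is made from separate primary transcripts, that of miR-200b, miR-200a and miR-429 and that of miR-200c and miR-141. miR-200a and miR-141 share a seed, the bases that pair with targets, and miR-200b, miR-200c and miR-429 share another that differs from it by a base. miR-205 is typical of stratified and glandular epithelia and also represses ZEB1 and ZEB2. miR-182 and miR-183 are made together with miR-96 from a cluster best known from sensory epithelia such as the retina and the inner ear. miR-182 is also known to be induced in activated T cells of the mouse.

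On the bovine build bosTau4, as the count table gives locations, all 8 mature miRNAs lie on the minus strand. miR-200b (chr16:48595028-48595048), miR-200a (chr16:48594371-48594393) and miR-429 (chr16:48593134-48593155) follow each other within 1894 bases from start to start. miR-200c (chr5:10483361-10483383) and miR-141 (chr5:10482939-10482960) are 422 bases apart. miR-183 (chr4:96835969-96835991) and miR-182 (chr4:96831247-96831270) are 4722 bases apart, with miR-96 (chr4:96835746-96835768) between them. miR-205 (chr16:72083298-72083319) lies on the chromosome of miR-200b, 23.5 Mb away from it. In the RefSeq annotation of another assembly, ARS-UCD2.0, the genes of 8 of 8 were found by symbol, and those of each cluster are direct neighbours there too. Host genes, introns and exons were not looked up.

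Plasma libraries held 1453384 to 4296460 miRNA reads and blood cell libraries 11169204 to 14471979. Levels are given in RPMM, the authors' unit of reads scaled to library depth, in which 1 read of a plasma library counts 0.232 to 0.688, against 0.0690 to 0.0895 for a blood cell library. The detection floor was set at 3 reads, which is 0.696 to 2.07 RPMM for plasma libraries, against 0.207 to 0.268 RPMM for the cell libraries. The blood cell libraries were thus the deeper ones. Read counts were compared by the quasi-likelihood method of edgeR with the cow as a block and TMM scaling. The fit took the 209 names that reached 25 RPMM in 3 or more libraries of plasma or of blood cells. P-values were adjusted over all of them after Benjamini and Hochberg, and 0.05 was the limit for a call. TMM is a scaling between libraries that takes most names as unchanged. With it, 45.5% of the tested names were called for plasma and 39.7% for blood cells, so this may not hold here. Fold changes are plasma over blood cells. Scaling by library totals alone raised the median log2 fold change of all tested names to 1.76, against 0.08 with TMM. The log2 fold changes below use TMM. Ratios and bounds of pooled levels are in RPMM, without TMM, and therefore run higher. The 8 miRNAs kept their direction under both scalings.

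All 8 miRNAs were present in every plasma library and scarce in every blood cell library. Together they held 6291 ± 2281 RPMM in plasma, against 8.82 ± 0.814 RPMM in the cells (SD, n = 4 each). This was 0.337% to 0.889% of the RPMM of a plasma library, and 0.000773% to 0.000956% of a blood cell library. In reads, they amounted to 11087 to 21692 per plasma library and to 104 to 112 per blood cell library. For each of the 8, the lowest plasma level lay above the highest blood cell level, a separation that 35.7% of all 704 names showed in this direction and 64.1% of the 209 tested names.

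**Figure D1:**
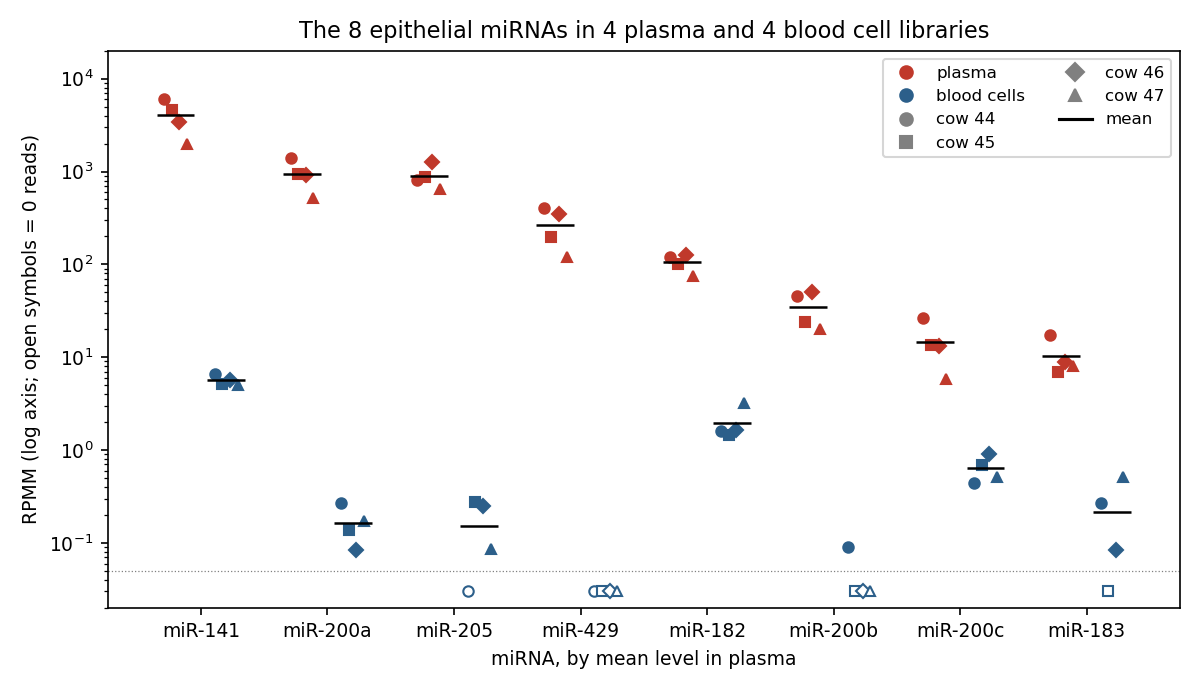
RPMM (log axis) of the 8 miRNAs, ordered by mean plasma level, in the 4 plasma libraries (red) and the 4 blood cell libraries (blue). Symbols mark cows, black lines are means (left out where under 0.05), and open symbols are libraries with 0 reads. The plasma points of each miRNA lie above all its blood cell points, and miR-429 has open symbols in all 4 blood cell libraries.

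Of the 8, 5 passed the filter (miR-141, miR-182, miR-200a, miR-205 and miR-429), and all 5 were called higher in plasma and 0 lower. Of all 209 tested names, plasma calls made up 45.5% and blood cell calls 39.7%. With library totals alone, plasma calls made up 67.0%. All 5 passed through their plasma level alone, with no blood cell library at 25 RPMM, so that the filter admits them only if they are higher in plasma, and their count and fold changes as a group carry no weight of their own. Their median log2 fold change was 10.69, and 10.21 with miR-429 at its lower bound on the TMM scale, against 0.08 over all tested names. The other 3, miR-200b, miR-200c and miR-183, were under the filter. When all 704 names were tested without it, 8 of 8 were called higher in plasma and 0 lower, where plasma calls made up 25.3% of all names. With library totals and no filter, the count was 8 again, against 42.2% of all names.

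The most abundant of the group was miR-141, of the miR-200c cluster, which ranked 35th of all names in plasma. It had 6054, 4657, 3379 and 1976 RPMM in the plasma of cows 44, 45, 46 and 47, against 6.62, 5.18, 5.66 and 5.08 RPMM in their blood cells. Cow 44 was highest and cow 47 lowest in both fractions, and the fractions were far apart in every cow. miR-141 was the only 1 of the 8 with over 50 reads in each blood cell library, at 59 to 75. On the log2 scale plasma exceeded blood cells by 7.69 (standard error 0.29, edgeR adjusted p = 4.02e-06), in 4 of 4 cows.

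miR-200c, whose mature sequence lies next to miR-141 on chromosome 5, was among the scarcest in plasma. It had 26.2, 13.5, 13.2 and 5.80 RPMM in the plasma of cows 44 to 47, against 0.447, 0.690, 0.916 and 0.517 RPMM in their blood cells. In reads this was 38, 43, 24 and 25 in plasma, and 5, 10, 11 and 6 in blood cells. The fractions did not overlap, but the gap was the smallest within the group. Without the filter its log2 fold change was 2.73 (standard error 0.38, edgeR adjusted p = 2.13e-05, 4 of 4 cows higher).

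miR-200a, of the cluster on chromosome 16, was the second of the group in mean plasma level. It had 1408, 941, 912 and 517 RPMM in plasma of cows 44 to 47, and 3, 2, 1 and 2 reads in their blood cells, or 0.0833 to 0.268 RPMM. All 4 blood cell values were thus at or below 3 reads. The ratio of pooled RPMM was 5111, with a 95% exact binomial interval of 2593 to 11840 that covers counting error only. The log2 fold change was 10.69 (standard error 0.31, edgeR adjusted p = 4.02e-06, 4 of 4 cows higher). In an alternative fit with DESeq2 its standard error was 0.57, so that 0.31 may be too small for so few blood cell reads.

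miR-429, the third miRNA of that cluster, had 403, 197, 352 and 120 RPMM in plasma of cows 44 to 47 and 0 reads in every blood cell library. Over the 4 blood cell libraries, 3 reads are the limit that a count of 0 allows. Against it the pooled plasma level in RPMM was at least 3620-fold higher, while on the TMM scale the bound was 1187-fold. Without cow 46 the RPMM bound was 2405, without cow 44 it was 2436 and without cow 45 it was 2668. miR-429 was called higher in plasma (edgeR adjusted p = 0.00016, 4 of 4 cows higher). In the paper's RT-qPCR, miR-429 was too scarce for an accurate measurement in most samples. Its fitted fold change depends on the count that edgeR adds to a zero and is not used as a value. The human homologue of miR-429 is a separate name with 2 plasma reads, in cow 46, and 1 blood cell read, in cow 47. Its difference did not pass the test without the filter (edgeR adjusted p = 0.61).

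miR-200b, the first of the cluster, had far fewer reads in plasma than its neighbours. It had 45.4, 24.2, 50.6 and 20.2 RPMM in plasma of cows 44 to 47, from 66 to 92 reads a library. It missed the filter because 2 of the 4 plasma libraries were below 25 RPMM, those of cows 45 and 47. In blood cells it had 1 read, in cow 44. The ratio of pooled RPMM was 1474, with a 95% exact binomial interval of 262.7 to 58410, and it was 958.5 (170.3 to 38020) without cow 46. Without cow 44 the pooled plasma level in RPMM was at least 349-fold higher. Without the filter, it was called higher in plasma (edgeR adjusted p = 5.96e-09, 4 of 4 cows higher).

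miR-205, the miRNA of stratified epithelia, had a plasma level close to that of miR-200a. It had 813, 874, 1254 and 644 RPMM in plasma of cows 44 to 47, and 0, 4, 3 and 1 reads in their blood cells. Cow 46 was the highest in plasma, unlike for miR-141, miR-200a and miR-429. The ratio of pooled RPMM was 5162 (95% exact binomial interval 2618 to 11960). The log2 fold change was 10.73 (standard error 0.53, edgeR adjusted p = 6.34e-06, 4 of 4 cows higher).

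miR-182 had the smallest fold change of the 5 tested, and its levels in plasma were the most even of the 8. It had 120, 102, 125 and 75.4 RPMM in plasma of cows 44 to 47, against 1.61, 1.45, 1.67 and 3.19 RPMM in their blood cells. Cow 47 was lowest in plasma and highest in blood cells. The log2 fold change was 4.08 (standard error 0.32, edgeR adjusted p = 3.15e-05, 4 of 4 cows higher), the 44th highest of the 209, where miR-141 stood at place 13.

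miR-183, its neighbour on chromosome 4, was the scarcest of the 8 in plasma. It had 25, 22, 16 and 35 reads in plasma of cows 44 to 47, or 17.2, 6.91, 8.79 and 8.12 RPMM, and 3, 0, 1 and 6 reads in their blood cells. As for miR-182, the blood cells of cow 47 held the most. Without the filter its log2 fold change was 3.99 (standard error 0.54, edgeR adjusted p = 1.37e-05, 4 of 4 cows higher), beside 4.17 for miR-182 in the same fit. The ratio of pooled RPMM was 44.9 (95% exact binomial interval 23.4 to 96.5), and 91.9 (34.2 to 347.7) without cow 47. miR-96, the other miRNA of this cluster, had 3 reads in all plasma libraries and 3 in all blood cell libraries, so that a difference was not detectable at this depth (edgeR adjusted p = 0.67 without the filter).

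**Figure D2:**
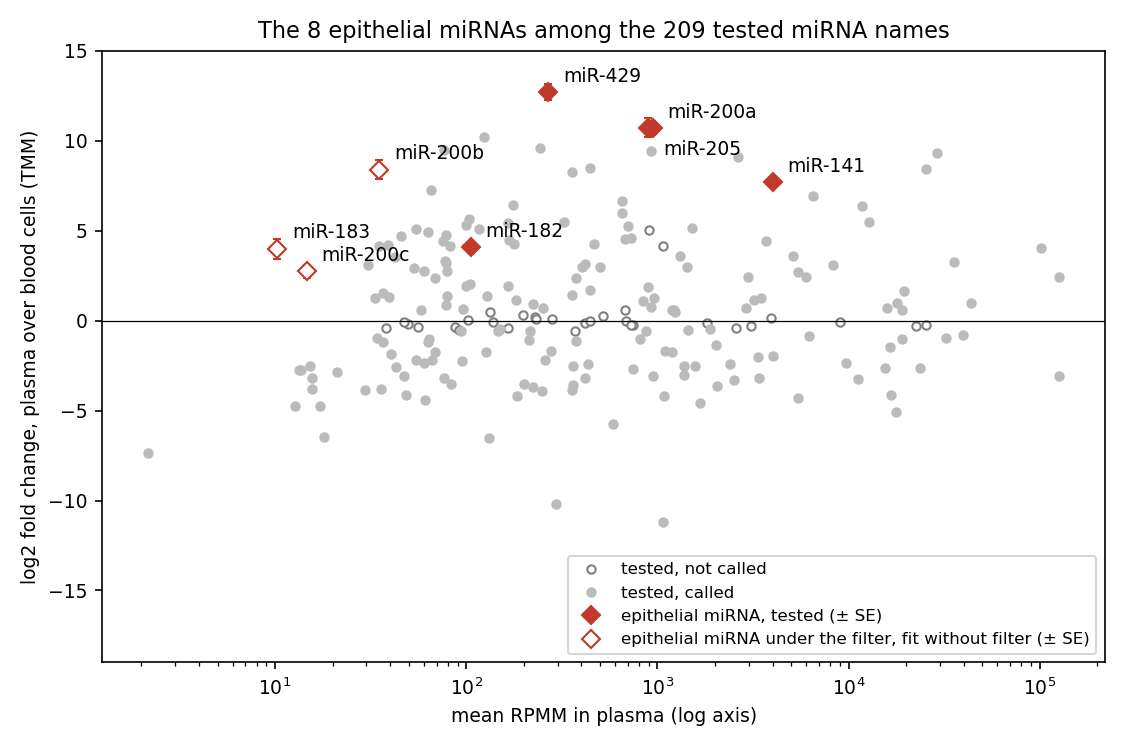
Log2 fold change, plasma over cells, with TMM scaling against mean plasma RPMM (log axis) for the 209 tested names (grey, open where not called). Filled red diamonds are the 5 tested epithelial miRNAs, open diamonds the 3 under the filter from the fit without it, and bars are standard errors. The bar of miR-200a is 0.31, against a standard error of 0.57 with DESeq2, and may be too short. miR-205 at 10.73 and miR-200a at 10.69 lie far above miR-182 at 4.08, which is among many other plasma calls. The height of miR-429 depends on the count edgeR adds to its 0 blood cell reads and gives no place in the order, its lower bound being 10.21.

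The members of a cluster were far from equal in plasma. A plasma library held 231 to 345 reads of miR-141 for each read of miR-200c. It held 18.0 to 38.9 reads of miR-200a for each read of miR-200b, 2.59 to 4.77 for each read of miR-429, and 5.94 to 8.88 reads of miR-429 for each of miR-200b. For miR-182 over miR-183 the ratio was 7.0 to 14.7. The pair that shares a seed across clusters, miR-141 and miR-200a, kept a narrow ratio of 3.71 to 4.95. The counting allowed a mismatch between a read and a mature sequence, and members of this family differ at few bases, so the ratios between miR-200a and miR-141, and among miR-200b, miR-200c and miR-429, are uncertain.

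By mean plasma level the order was miR-141, miR-200a, miR-205, miR-429, miR-182, miR-200b, miR-200c and miR-183. Neighbours kept this order in 4 of 4 cows, at geometric mean ratios of 2.32 to 4.17, except for miR-200a over miR-205 and miR-200c over miR-183. miR-200a was 1.02 times miR-205 on average (0.727 to 1.73 in single cows, higher in 2 of 4), so these did not differ beyond their spread. The ratio of miR-200c to miR-183 was 1.34 (0.714 to 1.95, higher in 3 of 4). With 4 cows, an exact two-sided permutation test cannot go below p = 0.13, which was reached by the 5 neighbours that kept their order (0.175 after Benjamini-Hochberg adjustment over 7 neighbours), while miR-200a against miR-205 gave p = 0.875 (exact permutation test, adjusted 0.875) and miR-200c against miR-183 p = 0.25 (exact permutation test, adjusted 0.292). Ligation and amplification differ between small RNAs, so an order of reads is not an order of molecules.

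The order in blood cells was another, namely miR-141, miR-182, miR-200c, miR-183, miR-200a, miR-205, miR-200b and miR-429. The places of miR-183, miR-200a and miR-205 rest on 10, 8 and 8 reads and turned with single libraries. Without cow 47 their means were 0.117, 0.163 and 0.175 RPMM, and without cow 44 they were 0.200, 0.131 and 0.204 RPMM. miR-182 and miR-200c took larger shares of the group's reads there than in plasma, and miR-200a, miR-205 and miR-429 smaller ones. miR-182 made up 1.78% ± 0.426 of the reads of the 8 in plasma, against 22.2% ± 7.49 in cells, and miR-200c 0.220% ± 0.0525 in plasma, against 7.43% ± 2.78 in cells (SD, n = 4 each). In contrast, miR-200a made up 15% ± 0.87 in plasma, against 1.86% ± 0.789 in cells, and miR-205 15.4% ± 5.37 in plasma, against 1.84% ± 1.67 in cells (SD, n = 4 each). miR-141 held 62.6% ± 6.58 in plasma, against 64.2% ± 7.73 in cells (SD, n = 4 each), a difference smaller than the spread.

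A ratio of counts within 1 library does not depend on its depth or scaling, so these shifts were tested as ratios, for the 6 pairs of the 4 miRNAs that had reads in all 8 libraries (miR-141, miR-182, miR-200c and miR-200a). The count of miR-141 over that of miR-200a was 4.30, 4.95, 3.71 and 3.82 in plasma of cows 44 to 47, against 24.7, 37.5, 68.0 and 29.5 in their blood cells, 8.86-fold lower in plasma. These blood cell ratios divide by only 3, 2, 1 and 2 reads of miR-200a. The count of miR-141 over that of miR-200c was 231, 345, 256 and 341 in plasma, against 14.8, 7.5, 6.18 and 9.83 in blood cells, or 31.9-fold higher in plasma. The ratio of miR-141 to miR-182 was 50.3, 45.7, 27.1 and 26.2 in plasma, against 4.11, 3.57, 3.40 and 1.59 in blood cells, 12-fold higher in plasma. In these pairs the fractions did not overlap.

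The widest shift was that of miR-200c against miR-200a, at a mean log2 ratio of -6.12 in plasma and 2.03 in blood cells. It rests on 1 to 3 reads of miR-200a per blood cell library. For miR-182 against miR-200a, which rests on the same few reads, the mean log2 ratios were -3.10 in plasma and 3.63 in blood cells. The ratio of miR-182 to miR-200c had the smallest shift, with 4.61 to 13.0 in plasma, against 1.82 to 6.17 in cells, and was the only 1 of the 6 whose fractions overlapped. The 6 ratios are built from the same 4 miRNAs and are not independent of each other, and those with miR-200a share its few reads. The direction was the same in 4 of 4 cows for all 6 pairs, and each exact two-sided permutation test gave p = 0.13 (0.13 after Benjamini-Hochberg adjustment over 6), the smallest that 4 cows allow. The design can therefore not reach 0.05 for these ratios.

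**Figure D3:**
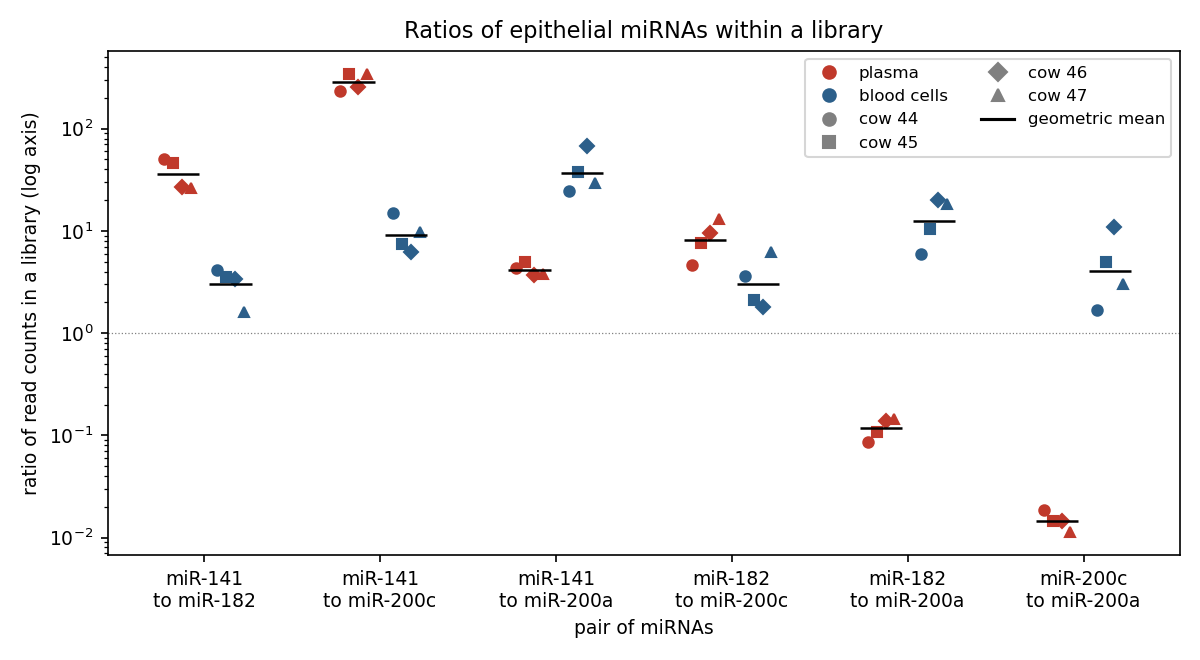
Ratio of the read counts of a pair of miRNAs within a library (log axis), for the 6 pairs with reads in all 8 libraries, in plasma (red) and blood cells (blue). Symbols mark cows and black lines geometric means. The fractions overlap only for miR-182 to miR-200c, and miR-200c to miR-200a shows the widest gap.

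The median coefficient of variation of the 8 miRNAs over the 4 plasma libraries was 43.3%, against 24.0% for the 209 tested names. It ran from 21.3% for miR-182, below that of the tested names, to 57.6% for miR-200c. The 8 include the 3 of few reads under the filter, and the difference was not tested. With TMM-scaled read counts (CPM) the medians were 34.3% and 20.8%. The sum of the 8 was 8888, 6815, 6094 and 3367 RPMM in cows 44, 45, 46 and 47. Cow 47 had the lowest plasma level for 7 of the 8 (for miR-183 it was cow 45), and cow 44 the highest for 5 and cow 46 for 3. Cow 47 was also lowest for 64.6% of all tested names in RPMM. Its 5 most abundant names took 51.1% of the RPMM, against 40.7% to 42.3% in the other plasma libraries. With TMM scaling, cow 47 was lowest for 5 of the 8 and for 34.4% of tested names, and the sum of the 8 was 4457, 3655, 3209 and 2358 CPM. There is 1 plasma library per cow, so that a difference between cows has no replicate check.

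**Figure D4:**
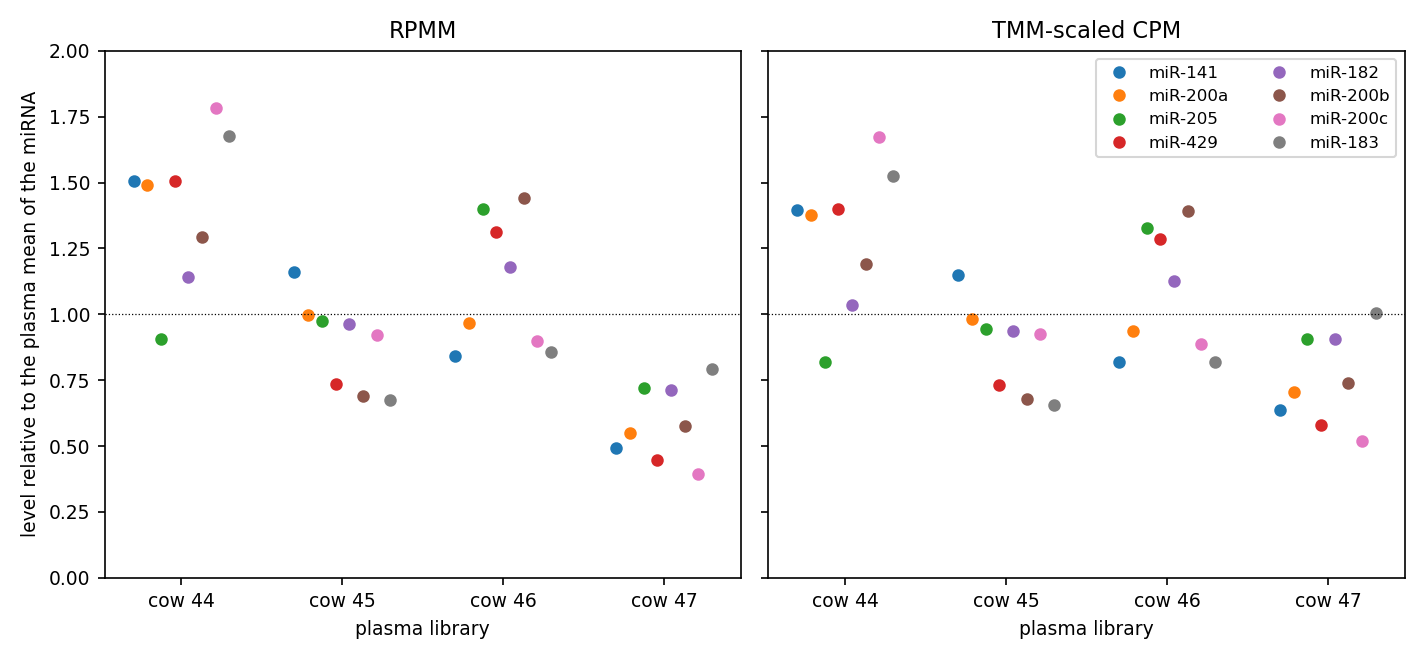
Level of each of the 8 miRNAs in the plasma of cows 44 to 47, divided by its mean over the 4 plasma libraries, in RPMM (left) and in TMM-scaled CPM (right). Points are libraries, and 1 on the vertical axis is the plasma mean. In RPMM all 8 points of cow 47 lie below 1, while with TMM scaling miR-183 of cow 47 is at its mean.

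Markers of other sources differed in how they followed the order of cows that the sum of the 8 showed. miR-141 made up 55.4% to 68.3% of the plasma reads of the 8 and weighs most in this sum. Of the 8, miR-141, miR-200a and miR-200c had this order themselves, and the others did not. The share of all tested names with this order was not counted. The 5 leukocyte miRNAs listed (miR-142-3p, miR-142-5p, miR-150, miR-155 and miR-223) summed to 68204, 58658, 53902 and 31864 RPMM in plasma of cows 44 to 47, the same order as the sum of the 8, against 25061 to 30989 RPMM in the cell libraries. The calls among these 5 turned with the scaling, from 0 for plasma and 2 for blood cells with TMM to 4 for plasma and 0 for blood cells with library totals alone. The 3 red blood cell miRNAs (miR-451, miR-486 and miR-144) ran the other way, at 89165, 145518, 161148 and 180387 RPMM in plasma, and had 488193 to 561169 RPMM in blood cells. The 3 liver miRNAs (miR-122, miR-885 and the human homologue of miR-802) were highest in the plasma of cow 47, at 1103 RPMM against 99.6 to 176 in the others, and had 0.345 to 3.87 RPMM in blood cells. The 3 miRNAs listed for gut (miR-192, miR-194 and miR-215) summed to 163612, 127265, 91652 and 144518 RPMM in plasma of cows 44 to 47, against 1895 to 2124 RPMM in cells. Both arms of the endothelial miR-126 summed to 7320, 5129, 9762 and 6294 RPMM in plasma, against 15.5 to 26.7 RPMM in cells. Neither sum had the order of the sum of the 8. Of the 3 miRNAs listed for gut, miR-215 alone had it, at 53339, 31786, 16728 and 13933 RPMM in plasma of cows 44 to 47. The most abundant of them, miR-192, was highest in cow 47, at 129668 RPMM, and miR-194 was lowest in cow 46. Plasma depth was lowest in cow 44 and highest in cow 47. The part of these in the differences between cows was not tested. The 8 miRNAs had 7.73 to 9.56 RPMM in all in the blood cells themselves.

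The names whose course over the 4 plasma libraries was closest to that of the sum of the 8 were miR-497, miR-29c, miR-20a, miR-324 and miR-1388-3p, out of 204 other tested names. Closeness was measured as the root mean square difference of centred log2(RPMM + 1) over 4 libraries, and was 0.0554, 0.0625, 0.102, 0.128 and 0.139, against a median of 0.415 over the 204. miR-497 had 480, 331, 308 and 174 RPMM in plasma of cows 44 to 47 and exceeded blood cells by 5.50 on the log2 scale (standard error 0.20, edgeR adjusted p = 4.02e-06), and miR-324 and miR-1388-3p were called higher in plasma as well. In the paper's RT-qPCR across tissues, miR-1388-3p was high in blood cells, a comparison with other tissues and not with plasma. miR-20a was called higher in blood cells, with a log2 fold change of -3.67. For miR-29c the direction depended on the scaling, with a log2 fold change of -1.04 (edgeR adjusted p = 0.0013) with TMM and of 0.63 (edgeR adjusted p = 0.023) with library totals alone. Its level was 806 ± 281 RPMM in plasma, against 498 ± 86.8 RPMM in cells (SD, n = 4 each). Names with a similar course over cows thus included calls in either direction.

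Of 9 other miRNAs listed as known from epithelia, 6 were in the table, and 4 of these were tested and called higher in plasma, beside 45.5% of all tested names. The 4 are miR-192, miR-194, miR-215 and miR-375, and of the others miR-184 was called without the filter and miR-96 was not. miR-203, miR-203b and miR-31 were listed but not analysed here. The 4 tested had 804 to 93579 reads over the blood cell libraries, more than any of the 8, whose highest count there was the 276 reads of miR-141. miR-375, of endocrine and gut epithelial cells, had 3702 ± 1638 RPMM in plasma, near the level of miR-141, against 49.6 ± 10.5 RPMM in cells (SD, n = 4 each), with a log2 fold change of 4.45. The paper's RT-qPCR did not bear out the difference of miR-375 between plasma and cells. miR-192, miR-194 and miR-215, listed here for gut but not shown to come from it alone, had log2 fold changes of 4.04, 1.28 and 9.30. miR-215 had 28946 ± 18053 RPMM in plasma, against 16.9 ± 16.3 RPMM in cells (SD, n = 4 each). The paper's RT-qPCR found miR-215 mainly in intestine among the tissues profiled, and bore out its difference between plasma and cells. miR-184, known from the cornea, was under the filter, at 5.97 to 15.8 RPMM in plasma and 1 read in all blood cell libraries, and was called higher in plasma without the filter (edgeR adjusted p = 5.17e-07). Unlike for the 8, its highest plasma level was that of cow 47.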

How the data were processed

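Small RNA of 4 plasma and 4 blood cell libraries from the same 4 cows was sequenced with 36-base reads from 5 μL of RNA extract each. The authors discarded reads that lacked the adaptor, were too short or had undetermined bases. With sRNAbench (Bowtie 0.12.9 per the labels) they aligned the rest to bosTau4 and to known miRNAs, where 1 mismatch was allowed. The deposited table gives read counts for 565 bovine names and 139 human homologues. The authors also deposited normalised signal values (RPMM), in which human homologues have a denominator of their own.

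RPMM were recomputed from the counts with the authors' RPMM per read for bovine names, for homologues too. The study's edgeR analysis took RPMM, and here the raw counts were tested instead (edgeR 4.0.16, limma 3.58.1, R 4.3.3), with DESeq2 1.42.0 as an alternative. A standard error is the size of the log2 fold change over the root of F. Ratios were compared by exact permutation tests (scipy 1.17.1). Both procedures were checked on simulated data or known cases.

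The pairing by cow comes from the animals. After subtraction of fraction means, libraries of 1 cow correlated across names at 0.0508, 0.0564, 0.0757 and 0.234, and libraries of different cows at -0.174 to 0.106. The members and lists were chosen with earlier results of these data known. Named miRNAs are the 8 members, names with a member's stem, a list of other epithelial miRNAs and the 5 names closest in plasma course. Of the marker lists, 3 of 3 red blood cell names were called higher in blood cells, and 2 of 2 tested liver, 3 of 3 gut and 2 of 2 endothelial names higher in plasma, with TMM and with library totals. The leukocyte calls depended on the scaling. Intervals and floors cover counting error only, since PCR copies are not independent molecules. Alternatives were no block, other scalings, filters and tests, names summed by seed, added counts and leaving out each cow.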

Additional observations from a re-analysis of the deposited data

Results flagged for a closer look

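Dixon's criterion for a library far from the other 3 was met in 2 of 16 groups of a miRNA and a fraction, where chance meets it in about 1 of 20 groups of continuous values. The blood cells of cow 47 had 3.19 RPMM of miR-182, against 1.45 to 1.67 RPMM in those of the other cows. The blood cells of cow 44 had 0.0895 RPMM of miR-200b, from 1 read, against 0 reads in the other cows, and a lone read among 4 libraries always meets the criterion.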

How the results depend on the processing

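The log2 fold changes of the 8 miRNAs kept their direction and their call in 102 of 102 recomputations, with ranges of 7.54 to 9.37 for miR-141, 10.53 to 12.33 for miR-200a, 10.40 to 12.40 for miR-205 and 3.95 to 5.75 for miR-182. Without the replicate block, 94 plasma calls and 80 blood cell calls were made, against 95 and 83 with it, and 5 of the 8 miRNAs were called in either case. Without the filter there were 178 plasma calls, 153 blood cell calls and 8 calls among the 8 miRNAs, against 5 with it. That count was also 8 with library totals and 8 without each cow in turn, settings added after the data were seen. With library totals alone there were 140 plasma calls and 52 blood cell calls. Summed by shared seed, miR-200a with miR-141 had a log2 fold change of 7.97, and miR-429 with miR-200b and miR-200c one of 7.09. The mean log2 ratio of miR-200a to miR-205 in plasma was 0.03, and -0.22 to 0.19 when each cow was left out, negative without cow 44. Of 96 recomputed levels, 9 moved by over 1 SD, each with TMM-scaled CPM in place of RPMM. Depth limits the blood cell levels of miR-200a, miR-200b, miR-205, miR-429 and miR-183, each with at most 10 reads over the 4 libraries.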
